A study of Mus musculus with 14 samples.

Results

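Txnip, the arrestin-domain genes Arrdc1, Arrdc2, Arrdc3 and Arrdc4 and the Mondo transcription factor genes Mlx, Mlxip and Mlxipl were followed through RNA sequencing of neural stem and progenitor cells (NSPCs). These 8 genes were chosen by name among 53700 genes in the deposited tables, around the rise of Txnip in Yme1l KO cells, which was known when the set was made. Values of that comparison are therefore given for the 8 genes as a description, with no test. Earlier results of these data were known as well, so the adjusted p-values in quiescent cells are not an independent test of the chosen genes. All libraries came from NSPCs of adult C57BL/6 mice. Quiescent cells had been treated with BMP4 (4 libraries), and proliferating cells with FGF and EGF (4 libraries). Yme1l KO cells had received an adeno-associated virus carrying Cre-GFP (3 libraries) and their control an adeno-associated virus carrying GFP (3 libraries), both kept in FGF and EGF. The labels call the mice of the KO libraries wild type and give no floxed allele, so the level of Yme1l1 served as the check of the label. They do not say whether replicates were separate animals or cultures, so the p-values cover only the scatter among the libraries at hand, part or all of which may be technical.

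Thioredoxin-interacting protein, the product of Txnip, is an alpha-arrestin that binds thioredoxin and promotes the internalization of glucose transporters, which restrains glucose uptake. The other alpha-arrestins are adaptors that bring HECT ubiquitin ligases of the Nedd4 family to membrane proteins. MondoA (encoded by Mlxip) and ChREBP (Mlxipl) pair with Mlx, bind E-box-like elements when sugar phosphates accumulate, and have Txnip and Arrdc4 among their best known target genes.

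The promoters of Txnip, Arrdc4 and Mlxip are shown first because these 3 genes were higher in both quiescent and Yme1l KO libraries. Each sequence is a RefSeq window of build GRCm38.p6, from 250 bases before to 50 bases after the annotated start, written 5′ to 3′ on the strand of the gene. Txnip lay at chr3:96557707-96558006 (+ strand), Arrdc4 at chr7:68749189-68749488 (- strand) and Mlxip at chr5:123394548-123394847 (+ strand). Capitals mark CACGNG, the half-site of the element bound by Mondo factors, and CCAAT, the element bound by NF-Y, each searched on both strands.
Txnip: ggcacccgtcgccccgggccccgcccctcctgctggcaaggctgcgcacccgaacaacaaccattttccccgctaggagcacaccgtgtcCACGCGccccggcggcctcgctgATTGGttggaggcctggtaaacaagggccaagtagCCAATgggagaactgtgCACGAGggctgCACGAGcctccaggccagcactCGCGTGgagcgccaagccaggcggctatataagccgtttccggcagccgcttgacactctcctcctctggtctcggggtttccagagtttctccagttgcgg
Arrdc4: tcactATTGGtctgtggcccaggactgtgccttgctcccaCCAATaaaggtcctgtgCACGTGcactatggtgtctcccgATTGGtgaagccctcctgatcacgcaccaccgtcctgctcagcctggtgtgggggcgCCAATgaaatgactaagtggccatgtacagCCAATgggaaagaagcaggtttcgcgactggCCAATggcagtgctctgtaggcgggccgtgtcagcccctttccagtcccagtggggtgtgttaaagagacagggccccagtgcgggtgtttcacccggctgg
Mlxip: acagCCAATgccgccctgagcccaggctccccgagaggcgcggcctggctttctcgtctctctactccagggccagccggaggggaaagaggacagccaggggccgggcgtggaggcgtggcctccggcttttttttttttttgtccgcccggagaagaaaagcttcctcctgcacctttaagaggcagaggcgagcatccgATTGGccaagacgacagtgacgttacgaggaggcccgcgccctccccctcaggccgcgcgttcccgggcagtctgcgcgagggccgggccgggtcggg

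The Txnip window held 4 CACGNG matches. A pair of them formed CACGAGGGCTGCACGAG, which begins 85 bases before the start and reads as CACGNG, 5 bases of any kind, and CACGNG again. That spaced pair, searched on both strands, occurred in 16 of 32851 mouse promoter windows of the same length (0.0487%), and 4 or more CACGNG matches occurred in 0.396% of them. The Arrdc4 window held a single CACGTG, 193 bases before the start, a motif present in 7.15% of windows. It also held 6 CCAAT matches, where 1.06% of windows held 4 or more. The Mlxip window held no CACGNG match, a motif found in 27.5% of windows, and 2 CCAAT matches, where 11.7% of windows held 2 or more. The other genes held matches as well, whether or not they were higher. The Mlx window held a CACGTG match 40 bases before the start, and the window of the second listed start of Mlxipl held one 98 bases before it and a further CACGNG match. Arrdc1 held 2 CACGNG matches, Arrdc2 held 1 and the Arrdc3 windows held none. Of CCAAT, the Arrdc2 window held 3 matches, where 3.37% of windows held 3 or more, and the Mlx window held 2, as many as Mlxip. The Arrdc1 window held no CCAAT match, and no window of Arrdc3 or Mlxipl held more than 1. These matches describe the letters in the windows and are not evidence of binding.

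Library totals were 6475099 to 8797750 counts in quiescent, 8331999 to 8992709 in proliferating, 9053124 to 9490756 in Yme1l KO and 9226080 to 10320736 in GFP control libraries. Yme1l1 averaged 24.7 ± 1.61 CPM (counts scaled to the TMM-adjusted library size) in the KO and 127 ± 7.49 CPM in the GFP control (SD, n = 3 each; log2 fold change -2.36, SE 0.0714, adjusted p = 5.89e-11). In the separately normalized other libraries Yme1l1, a gene of 38.0% GC content, averaged 6.18 ± 3.3 CPM in quiescent and 3.49 ± 1.11 CPM in proliferating cells (SD, n = 4 each). The check of the label therefore rests on the KO and its own control alone. Of the KO libraries, replicate 3 scored 42.3 on the leading principal component, against 21.6 and 19.1 for the others. Of the quiescent libraries, replicate 2 scored 32.7 on the second component, against -20.5 to -3.88. The 5 most abundant genes took 11.9 to 13.1% of counts in quiescent and 4.08 to 4.60% in proliferating libraries. All 8 neural stem and progenitor markers passed the count filter in both comparisons. They summed to 5000 to 5740 CPM in quiescent and 4570 to 4770 CPM in proliferating libraries. In quiescent cells 4 were called higher, with Gfap at a log2 fold change of 2.78 (SE 0.103), and 3 lower, with Nes at -1.15 (SE 0.146). The sums were 4650 to 4970 CPM in KO and 5580 to 5710 CPM in GFP control libraries, with 0 called higher and 4 lower. The 6 astrocyte markers summed to 4400 to 4840 CPM in quiescent and 3530 to 3650 CPM in proliferating libraries, with 4 called higher and 1 lower. Their median log2 fold change was 1.25. Those called were Aqp4 (4.78, from 0.27 CPM in proliferating cells), S100b (2.54), Slc1a2 (1.66), Aldoc (0.83) and Aldh1l1 (-0.64). In the KO the 6 astrocyte markers summed to 784 to 888 CPM, against 673 to 688 CPM in the GFP control, with 4 of the 5 tested called higher and 1 lower. The 8 microglia markers summed to 3.27 to 6.47 CPM in quiescent and at most 0.738 CPM in proliferating libraries, and to 3.82 to 5.59 CPM in KO and 2.68 to 4.18 CPM in GFP control libraries, with Cx3cr1, C1qa, C1qb and Ptprc at 0 throughout. The part of these shifts in the results was not tested.

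In quiescent cells, Txnip and Mlxip stood at about 3 times the level of proliferating cells, Arrdc1, Arrdc3 and Arrdc4 were higher by a smaller factor, and Arrdc2 and Mlx were not called. Of the 8 genes, 7 passed the filter on low counts, and 5 of these 7 were called at an edgeR adjusted p under 0.05, all of them higher. Over all 12245 genes tested, 65.4% were called, 29.9% higher and 35.5% lower. The groups did not overlap for 5 of the 7 genes, against 59.7% of all genes tested. The count of called genes was 5 without quiescent replicate 2 as well. In these bulk libraries a change in the share of expressing cells and a change in RNA per cell cannot be told apart.

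Txnip (ENSMUSG00000038393) lies on chromosome 3, 96465273 to 96469199, + strand, in the GRCm39 coordinates of the deposited table. Its level was 102, 87.9, 98.6 and 92.8 CPM in the quiescent libraries, against 29.6, 33.0, 35.2 and 36.8 CPM in the proliferating libraries. Every quiescent library lay above every proliferating library, by a gap wider than the range within either group. The difference was 2.83-fold, or 1.499 on the log2 scale (SE 0.075, adjusted p = 5.54e-11), which ranked 659 from the top among the 12245 genes tested. Without quiescent replicate 2 it was 1.62 (SE 0.0743), and the values of Mlxip, Arrdc4 and Arrdc3 described next were then 1.69, 0.94 and 0.84.

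Arrdc4 (ENSMUSG00000042659, chromosome 7, 68386743 to 68398989, - strand) encodes the alpha-arrestin most closely related to Txnip, which also lowers glucose uptake. It measured 45.4, 46.5, 45.6 and 44.8 CPM in the quiescent libraries and 22.1, 25.7, 25.6 and 26.6 CPM in the proliferating libraries. The quiescent libraries were nearly level with each other and all above the proliferating ones (log2 fold change 0.87, SE 0.0763, adjusted p = 5.78e-08). Arrdc3 (ENSMUSG00000074794, chromosome 13, 81031503 to 81044161, + strand), an adaptor for beta-adrenergic receptors, measured 12.6, 19.5, 14.8 and 16.2 CPM in the quiescent libraries, against 10.4, 9.05, 7.05 and 7.92 CPM in the proliferating libraries. The groups stayed apart, but the quiescent libraries spread widely (log2 fold change 0.88, SE 0.162, adjusted p = 0.00019). Arrdc3 has a low GC content (40.6%), and with each library's trend with GC content removed its log2 fold change was 0.62 (SE 0.143, adjusted p = 0.00161).

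Arrdc1 (ENSMUSG00000026972, chromosome 2, 24815364 to 24825264, - strand) encodes the arrestin-domain protein that drives budding of microvesicles from the plasma membrane in human cells. It was low, at 4.66 ± 0.93 CPM in quiescent and 2.60 ± 0.412 CPM in proliferating cells (SD, n = 4 each). Its log2 fold change of 0.84 (SE 0.243, adjusted p = 0.00672) fell to 0.37 (SE 0.194) by limma on log2(TPM + 1) and was then not called, with an adjusted p of 0.128 and a range of 0.00116 to 0.128 over the alternatives. On the TPM scale, 5.72 ± 0.758 TPM in quiescent and 4.29 ± 1.21 TPM in proliferating cells, its groups overlapped. Arrdc2 (ENSMUSG00000002910, chromosome 8, 71287773 to 71292364, - strand) had 9.14 ± 0.861 CPM in quiescent and 11.4 ± 1.35 CPM in proliferating cells. The groups overlapped, and the log2 fold change of -0.32 (SE 0.143, 95% interval -0.63 to -0.02) did not pass after adjustment (adjusted p = 0.0579). It passed with library size alone (adjusted p = 0.00983), by limma on log2(TPM + 1) (0.0173) and without proliferating replicate 2 (0.0496), within a range of 0.00983 to 0.318.

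Among the transcription factor genes, Mlxip changed most. Mlxip (ENSMUSG00000038342, chromosome 5, 123532861 to 123595995, + strand), which encodes the glucose sensor MondoA, had 131, 132, 148 and 141 CPM in the quiescent libraries, against 44.3, 44.7, 49.4 and 46.0 CPM in the proliferating libraries. The groups were far apart and each was tight (log2 fold change 1.58, SE 0.0599, adjusted p = 1.94e-12, a 2.99-fold difference). Its dimer partner Mlx (ENSMUSG00000017801, chromosome 11, 100978103 to 100983033, + strand) had 34.0 ± 3.49 CPM in quiescent and 37.5 ± 2.37 CPM in proliferating cells. The groups overlapped, and its log2 fold change was -0.14 (SE 0.085, adjusted p = 0.153, 95% interval -0.32 to 0.04), which passed only with library size alone (-0.28, adjusted p = 0.00776, range 0.00776 to 0.825 over the alternatives). Mlxipl (ENSMUSG00000005373, chromosome 5, 135118744 to 135167236, + strand), the gene of ChREBP, had 1, 3, 2 and 1 counts in the quiescent libraries and 6, 0, 2 and 2 in the proliferating libraries. At this depth no difference was detectable, with a ratio of 0.828 (exact 95% interval 0.267 to 2.41, counting error only). Of the genes of the glucose-sensing factors, that of MondoA was thus well covered by reads and that of ChREBP was close to the detection limit.

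**Figure D1:**
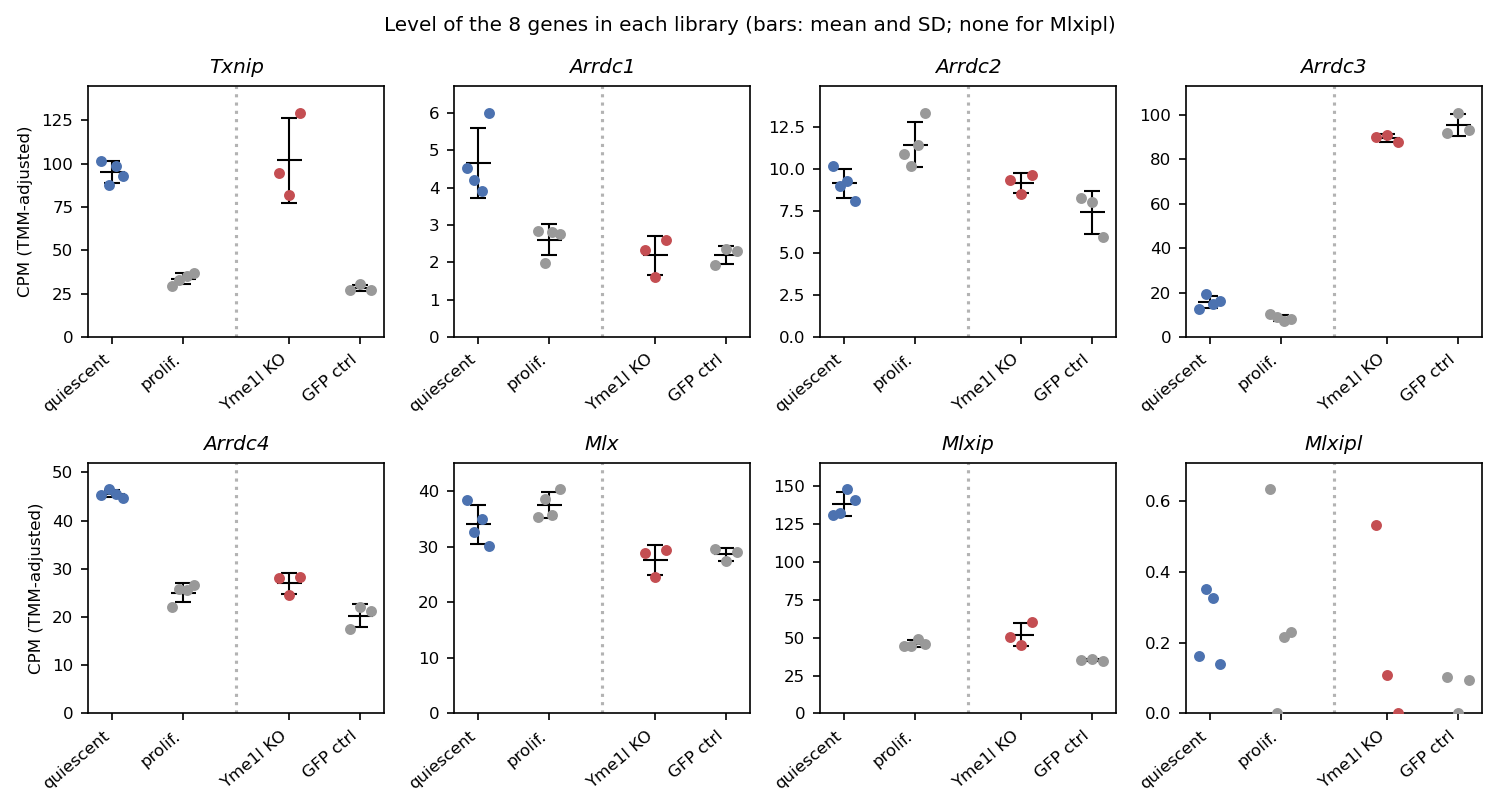
Level of each of the 8 genes in each library, in TMM-adjusted CPM (vertical axes differ between panels); points are libraries and bars the mean and SD, with none for Mlxipl, which had at most 6 counts in a library. Txnip lies at 87.9 to 102 CPM in quiescent and 29.6 to 36.8 CPM in proliferating libraries, and at 81.8 to 129 CPM in KO and 26.9 to 30.6 CPM in GFP control libraries.

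In the Yme1l KO, Txnip stood 3.61-fold above the GFP control, the change of rank 29 from the top among the 12625 genes tested. Mlxip and Arrdc4 were higher by smaller factors, and Arrdc1, Arrdc3 and Mlx lay close to the control. The groups did not overlap for 5 of the 7 genes that passed the count filter and for 61.4% of all genes tested. Since the set was built around this change, nothing is read from that count, and no calls are given for its members. Of all genes tested 51.6% were called.

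Txnip measured 94.8, 81.8 and 129 CPM in the KO libraries, against 26.9, 30.6 and 27.4 CPM in the GFP control libraries. Each KO library was well above each control, and KO replicate 3, the library that stood apart over all genes, was the highest. The log2 fold change was 1.85 (SE 0.189) with that library and 1.65 (SE 0.0733) without it. Mlxip measured 50.8, 45.3 and 60.3 CPM in the KO libraries, against 35.6, 36.0 and 34.5 CPM in the GFP control libraries. The groups did not overlap, the log2 fold change was 0.56 (SE 0.0944), and without KO replicate 3 it was 0.44 (SE 0.078). Arrdc4 measured 28.0, 24.5 and 28.4 CPM in the KO libraries, against 17.6, 22.1 and 21.3 CPM in the GFP control libraries. The KO libraries were again all above the controls, by a narrow gap (log2 fold change 0.41, SE 0.104; without KO replicate 3 0.37, SE 0.103).

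Arrdc2 had 9.35, 8.50 and 9.62 CPM in the KO libraries, against 8.25, 8.04 and 5.94 CPM in the GFP control libraries (log2 fold change 0.31, SE 0.159, 95% interval -0.03 to 0.65). The KO libraries lay above the controls by a narrow gap, with a value near that of Arrdc4, but it was 0.17 without GFP control replicate 3, 0.39 without GFP control replicate 1 and 0.10 by limma on log2(TPM + 1). Arrdc3 had 89.6 ± 1.73 CPM in the KO and 95.2 ± 4.91 CPM in the GFP control (SD, n = 3 each; log2 fold change -0.09, SE 0.0563). Arrdc1 had 2.18 ± 0.512 CPM in the KO and 2.20 ± 0.229 CPM in the GFP control, with a log2 fold change of -0.01 (SE 0.278) whose 95% interval ran from -0.61 to 0.58. Mlx had 27.6 ± 2.69 CPM in the KO and 28.6 ± 1.14 CPM in the GFP control, and its log2 fold change of -0.05 (SE 0.0905) had an interval of -0.25 to 0.14. The intervals show that for Arrdc1 a change of either sign remains within the error, while for Mlx only a small one does. Mlxipl had 5, 1 and 0 counts in the KO libraries and 1, 0 and 1 in the GFP control libraries, too few to compare (ratio 3.14, exact 95% interval 0.562 to 31.9, counting error only).

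**Figure D2:**
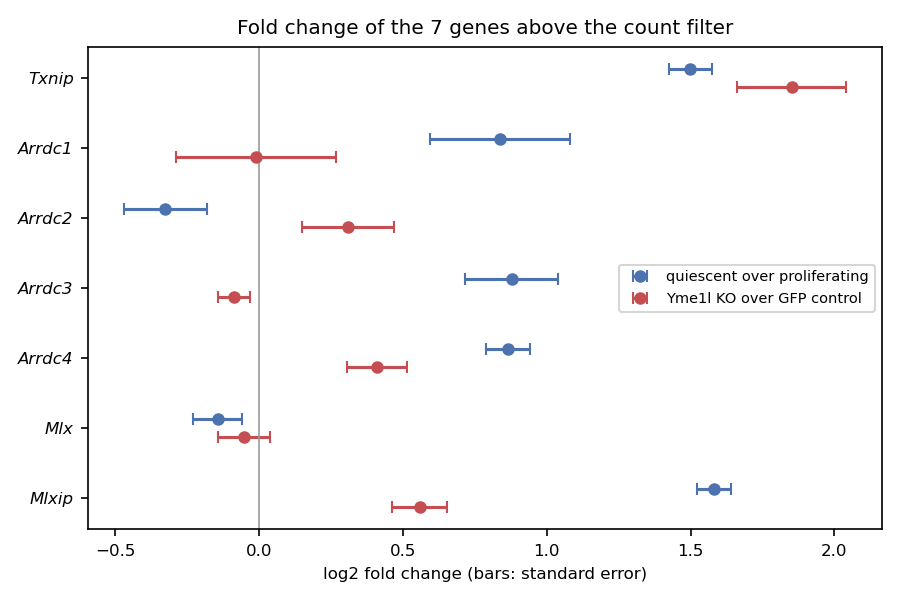
Log2 fold change of the 7 genes above the count filter, quiescent over proliferating (blue) and Yme1l KO over GFP control (red), with bars of 1 standard error. Txnip lies at 1.499 and 1.85, Mlxip at 1.58 and 0.56 and Arrdc4 at 0.87 and 0.41, while Arrdc2 lies at -0.32 and 0.31.

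Set side by side, the 2 comparisons share no library. Txnip had the higher fold change in the KO, whereas Mlxip, Arrdc1, Arrdc3 and Arrdc4 had the higher one in quiescent cells, and Arrdc2 had opposite signs. Those differences between comparisons were not tested. In the authors' deposited table of proliferating over quiescent cells, Txnip had a log2 fold change of -1.58 (SE 0.106) and Mlxip of -1.61 (SE 0.0811), the opposite sign because the ratio is inverted. In the same authors' deposited table Arrdc3 had -0.98 (SE 0.229), Arrdc4 -0.72 (SE 0.16) and Arrdc2 0.47 (SE 0.208). Arrdc1 had -0.39 (SE 0.322) in the authors' deposited table, a smaller value than in the edgeR fit and little more than its own error, and Mlx had 0.03 (SE 0.148) there. In the authors' deposited table of KO over GFP control, the values were 1.88 (SE 0.157) for Txnip, 0.68 (SE 0.117) for Mlxip and 0.34 (SE 0.168) for Arrdc4, and between -0.15 and 0.05 for Arrdc1, Arrdc2, Arrdc3 and Mlx.

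Levels that also correct for gene length (TPM) give the order of the 4 groups. The tables were normalized separately, so levels across them are described only. Txnip had 72.3 ± 17.2 TPM in the KO and 63.0 ± 3.75 TPM in quiescent cells, and 21.5 ± 2.06 TPM in proliferating cells and 19.2 ± 1.07 TPM in the GFP control (SD, n = 3 or 4). KO and quiescent libraries overlapped, as did proliferating and GFP control libraries. Mlxip had 32.4 ± 2.16 TPM in quiescent cells, 14.5 ± 0.679 TPM in the KO, 10.9 ± 0.382 TPM in proliferating cells and 8.83 ± 0.147 TPM in the GFP control. Arrdc4 had 22.7 ± 1.84 TPM in quiescent and 14.04 ± 2.94 TPM in proliferating cells, and 13.4 ± 1.34 TPM in the KO and 10.03 ± 1.59 TPM in the GFP control. For Mlxip no library of a group overlapped another group, and for Arrdc4 proliferating and KO libraries overlapped. The steps between tables include an offset over all genes, described next.

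Arrdc3 differed more between the tables than within them, with 8.44 ± 1.74 TPM in quiescent and 4.26 ± 1.11 TPM in proliferating cells, and 46.9 ± 6.00 TPM in the KO and 53.1 ± 9.02 TPM in the GFP control. Both proliferating and GFP control cells were grown in FGF and EGF, yet their log2 TPM ratio for Arrdc3 was -3.64. Across 10814 genes that ratio moved with GC content (Spearman correlation 0.712 across genes, which are not independent replicates), with a median of -1.71 in the 2704 genes of lowest GC content (median 42.9%) and 0.82 in the 2704 of highest (57.4%). For the other 6 genes measured in both tables it lay between 0.16 and 0.52. That of Mlxip, 0.30 at a GC content of 53.2%, was no larger than the median of 0.42 over the 2703 genes of its GC range (median GC content 52.5%). Arrdc1 (0.324) and Arrdc2 (0.415) lay below the median of the highest GC range, and Mlx had 0.52 at 50.6%. Txnip (0.163) and Arrdc4 (0.485) lay above the median of -0.458 in their range (median GC content 47.9%). Arrdc3 lay below the median of the lowest range. Medians do not give the offset of a single gene, so the steps between tables cannot be separated from it. Only the steps within a table are read. Mlx had 56.5 ± 7.91 TPM in quiescent and 59.4 ± 6.11 TPM in proliferating cells, and 36.7 ± 5.57 TPM in the KO and 41.3 ± 6.23 TPM in the GFP control. Arrdc1 (2.90 to 5.72 TPM in group means), Arrdc2 (7.39 to 10.8 TPM) and Mlxipl (0.0383 to 0.459 TPM) were low in every group, with neighbouring groups overlapping.

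Since MondoA acts as a dimer with Mlx, the ratio of Mlxip to Mlx was taken in each library. Mlxip was 0.446, 0.663, 0.664 and 0.564 times the TPM of Mlx in the quiescent libraries, against 0.196, 0.161, 0.21 and 0.172 in the proliferating libraries. The KO libraries had 0.333, 0.474 and 0.4, against 0.213, 0.256 and 0.184 in the GFP control libraries. Summed over its transcripts, Mlx had more TPM than Mlxip in every library. That sum includes the non-coding transcripts Mlx-204 and Mlx-206, with 12.3% and 11.8% of Mlx counts in quiescent and 11.4% and 10.4% in proliferating cells. The ratio was higher in quiescent and KO libraries with no overlap in either comparison. Groups also did not overlap in CPM for 59.7% and 61.4% of all genes tested. Mlx differed little within each table, so the ratio mostly restates the difference in Mlxip. Txnip made up 58.7 ± 2.51% of the summed TPM of Txnip and Arrdc1 to Arrdc4 in quiescent and 39.2 ± 1.38% in proliferating cells (SD, n = 4 each). It made up 49.7 ± 5.31% in the KO and 20.6 ± 1.18% in the GFP control (SD, n = 3 each), where Arrdc3 held more of the sum.

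The deposited transcript counts showed which isoforms carried these levels. Txnip was split between its coding transcripts Txnip-201 and Txnip-202, with Txnip-202 holding 53.6% of the counts in quiescent and 58.8% in proliferating cells, and 58.3% in the KO and 68.9% in the GFP control. The share of Txnip-202 ranged from 42.5 to 64.0% between quiescent libraries and from 41.7 to 76.5% between proliferating libraries, so no shift between these groups stood out from the spread. A single coding transcript held nearly all counts of Arrdc4 (Arrdc4-201, 91.1 to 98.4% in the 4 groups) and of Mlxip (Mlxip-201, 94.4 to 100%). For Arrdc3, the coding transcript Arrdc3-201 held 90.5 to 95.2% of the counts in KO libraries and 78.8 to 86.9% in GFP control libraries. Arrdc3-203, annotated as a target of nonsense-mediated decay, held 0 to 1.08% in KO libraries and 6.02 to 13.3% in GFP control libraries. The groups did not overlap for either transcript, which was not tested. These shares are parts of the same total, so they are not separate observations. How often transcripts separate such small groups was not taken over all transcripts. In the other table Arrdc3-201 held 60.2 to 93.3% in quiescent and 85.8 to 100% in proliferating libraries. Arrdc3-203 held 0 to 17.6% and 0 to 8.29% there, and the groups overlapped for both transcripts.

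**Figure D3:**
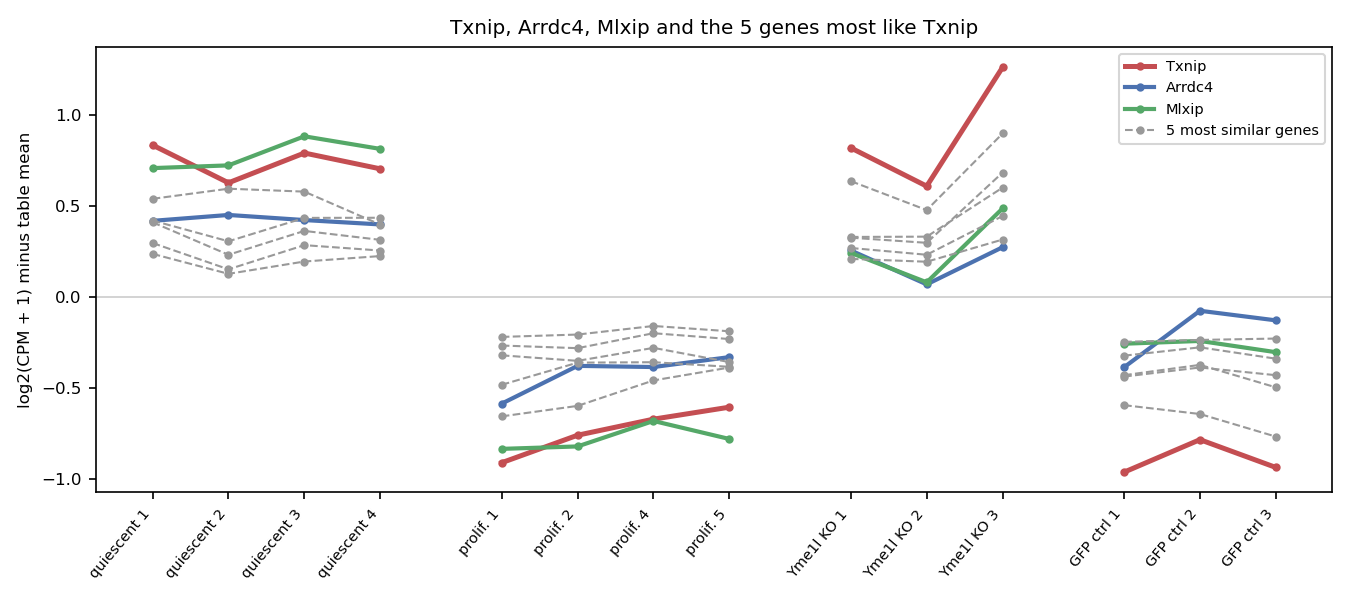
Level of Txnip, Arrdc4, Mlxip and the 5 genes most like Txnip in each library, as log2(CPM + 1) minus the mean of the library's table. All 8 lines lie above 0 in quiescent and KO libraries and below 0 in proliferating and GFP control libraries, and Txnip has its highest point in KO replicate 3.

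The genes whose profile was most like that of Txnip over all 14 libraries were Cd81 (Pearson correlation 0.996), Gabarapl1 (0.994), Man2a2 (0.994), Man2b2 (0.993) and Camk2n1 (0.993), out of 8944 genes ranked on log2(CPM + 1) after subtracting each table's mean. Genes very like Arrdc4 were Rnf34 (0.985), Afap1 (0.977), Pacs2 (0.974) and Nptx1 (0.974). The points share their group, library and depth, so these values describe likeness of pattern and carry no test. Gabarapl1, an autophagy protein of the ATG8 family, had log2 fold changes of 0.80 (SE 0.049) in quiescent cells and 0.89 (SE 0.101) in the KO. Camk2n1, an inhibitor of CaM kinase II, had 1.06 (SE 0.067) in quiescent cells and 1.38 (SE 0.103) in the KO. The 5 genes were picked by this likeness over both tables, so their fold changes in either comparison carry no further information on it. Within the set, the correlations of Txnip and of Arrdc4 with the other ranked members were taken over all libraries and within each table. Arrdc4 and Mlxip correlated at 0.965 over all libraries (exceeded by 31 genes), at 0.986 over the quiescent and proliferating libraries and at 0.882 over the KO and GFP control libraries. Txnip and Arrdc4 had 0.895 over all libraries (exceeded by 637 genes), but 0.993 and 0.908 within the tables. Txnip and Mlxip had 0.866 over all libraries (853 genes) and 0.992 and 0.978 within the tables, so the order of these pairs differed between the pooled and the separate values. Txnip with Arrdc2 had 0.011 over all libraries, made up of -0.708 in the quiescent and 0.746 in the KO table, and Txnip with Arrdc3 had 0.504, made up of 0.831 and -0.69. Txnip with Mlx had -0.341, and -0.483 and -0.16 within the tables. Arrdc1 and Mlxipl were below the 5 CPM needed to be ranked.

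The genes around this pathway were read in 10 lists of 118 listed genes. Of these, 92 were tested in quiescent cells, where 36 were called higher (39.1%, against 29.9% of all genes tested), 29 lower (31.5%, against 35.5%) and 27 were not called. In the KO 88 were tested, with 28 called higher (31.8%, against 25.4% of all genes tested), 22 lower (25%, against 26.2%) and 38 not called. Calls were thus common among all genes, and each list count that follows is a description against those shares, with no test of the list. The median of all genes tested was -0.01 on the log2 scale in quiescent cells and 0.00 in the KO.

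Other known targets of the Mondo factors were called in both directions in each comparison. Of the 13 glucose-responsive ChREBP and MondoA targets tested in quiescent cells, 7 rose, 3 fell and 3 were not called (median 0.30). Scd1, a fatty acid desaturase, had 882 ± 35.04 CPM in quiescent and 417 ± 22.8 CPM in proliferating cells (log2 fold change 1.08, SE 0.0467, adjusted p = 9.38e-12), and Khk, ketohexokinase of fructose metabolism, rose by 0.91 (SE 0.159). The zinc finger gene Klf10 (-2.31, SE 0.0764) and Gpd1 (-1.62, SE 0.048), glycerol-3-phosphate dehydrogenase, fell. In the KO, 3 of 12 rose, 6 fell and 3 were not called (median -0.14). Thrsp, a regulator of lipogenesis, rose to 192 ± 23.5 CPM in the KO, against 93.4 ± 2.04 CPM in the GFP control (1.04, SE 0.0754, adjusted p = 1.07e-06), and Gpd1 rose by 0.49 (SE 0.065). The lipid synthesis genes Elovl6 (-0.84, SE 0.0905) and Scd1 (-0.66, SE 0.0672) fell. Scd1 and Gpd1 were thus called in both comparisons with opposite signs, as was Acaca (0.30 in quiescent cells and -0.63 in the KO). Thrsp (0.31 and 1.04), Me1 (0.32 and 0.18), Acly (-0.66 and -0.59) and Klf10 (-2.31 and -0.26) were called in both with the same sign. Acaca, Me1 and Acly were named after their values were seen.

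In the network of Myc, Max and Mlx partners, which compete for E-boxes, 2 of 10 genes rose and 4 fell in quiescent cells (median -0.03). The Myc antagonists moved in both directions. Mxd1 (1.02, SE 0.0825) and Mxi1 (0.36, SE 0.0812) rose, and Mxd3 fell by 3.78 on the log2 scale (SE 0.155). Mnt, named after its values were seen, also fell (-0.54, SE 0.078), and Mxd4 was not called (0.05, SE 0.0438). Myc had 19.1 ± 1.70 CPM in quiescent and 124 ± 7.76 CPM in proliferating cells (-2.69, SE 0.0754, adjusted p = 5.19e-14). In the KO, 3 of 9 rose and 2 fell (median 0.01). Mxd4, a partner of Max, had 947 ± 157 CPM in the KO and 364 ± 4.797 CPM in the GFP control (1.38, SE 0.107, adjusted p = 2.82e-05), and Mxd1 rose by 0.82 (SE 0.138). Mxd3 (-0.75, SE 0.121) and Myc (-0.25, SE 0.0517) fell in the KO, the fall of Myc being much smaller than in quiescent cells in value, a difference that was not tested.

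Thioredoxin itself, the binding partner of Txnip, moved in opposite directions. Txn1 had 127 ± 8.78 CPM in quiescent and 213 ± 20.5 CPM in proliferating cells (-0.75, SE 0.0714, adjusted p = 4.91e-07). In the KO it had 1055 ± 39.6 CPM, against 705 ± 36.1 CPM in the GFP control (0.58, SE 0.0519, adjusted p = 1.52e-06). Of the 16 genes of the thioredoxin and peroxiredoxin system, all tested in both comparisons, 5 rose and 8 fell in quiescent cells (median -0.22) and 3 rose and 7 fell in the KO (median -0.13). Srxn1, sulfiredoxin, rose in quiescent cells (0.83, SE 0.0802) and in the KO (0.41, SE 0.0832). Prdx6, a peroxiredoxin, rose in quiescent cells (0.66, SE 0.046) and Msra, methionine sulfoxide reductase, fell (-0.96, SE 0.098). The thioredoxin reductases Txnrd1 (-0.53, SE 0.0488) and Txnrd3 (-0.51, SE 0.13) fell in the KO. Both also fell in quiescent cells (-0.58, SE 0.0535, and -0.55, SE 0.129). Prdx6 had the opposite sign in the KO, where it fell (-0.31, SE 0.0465), and Msra was not called there (0.06, SE 0.092).

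Glucose transporters and hexokinases, which stand downstream of Txnip in glucose uptake, were split. In quiescent cells 4 of 12 rose, 4 fell and 4 were not called (median 0.17). Slc2a13, a proton myo-inositol cotransporter, had 41.3 ± 13.2 CPM in quiescent and 2.56 ± 0.776 CPM in proliferating cells (4.01, SE 0.292, adjusted p = 1.93e-06), and Slc2a8, an intracellular glucose transporter, rose by 0.72 (SE 0.0826). Hk2, the inducible hexokinase, fell in quiescent cells (-1.17, SE 0.204), as did Slc2a9, a urate transporter (-0.85, SE 0.107). In the KO 6 of 10 rose, 2 fell and 2 were not called (median 0.32). Slc2a9 (1.06, SE 0.0906) and Slc2a8 (0.62, SE 0.132) rose, and Hk2 had 8.14 ± 1.40 CPM in the KO and 18.9 ± 1.05 CPM in the GFP control (-1.21, SE 0.133, adjusted p = 6.74e-06). The ADP-dependent glucokinase gene Adpgk fell (-0.54, SE 0.0835). The glucose transporter genes Slc2a1 and Slc2a3 were named after their values were seen. Slc2a1 rose in quiescent cells (0.50, SE 0.0508) and in the KO (0.26, SE 0.0939, adjusted p = 0.0284). Slc2a3 was not called in quiescent cells (-0.15, SE 0.113) and rose in the KO (0.48, SE 0.149, adjusted p = 0.014). Their calls were not examined under the alternatives.

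**Figure D4:**
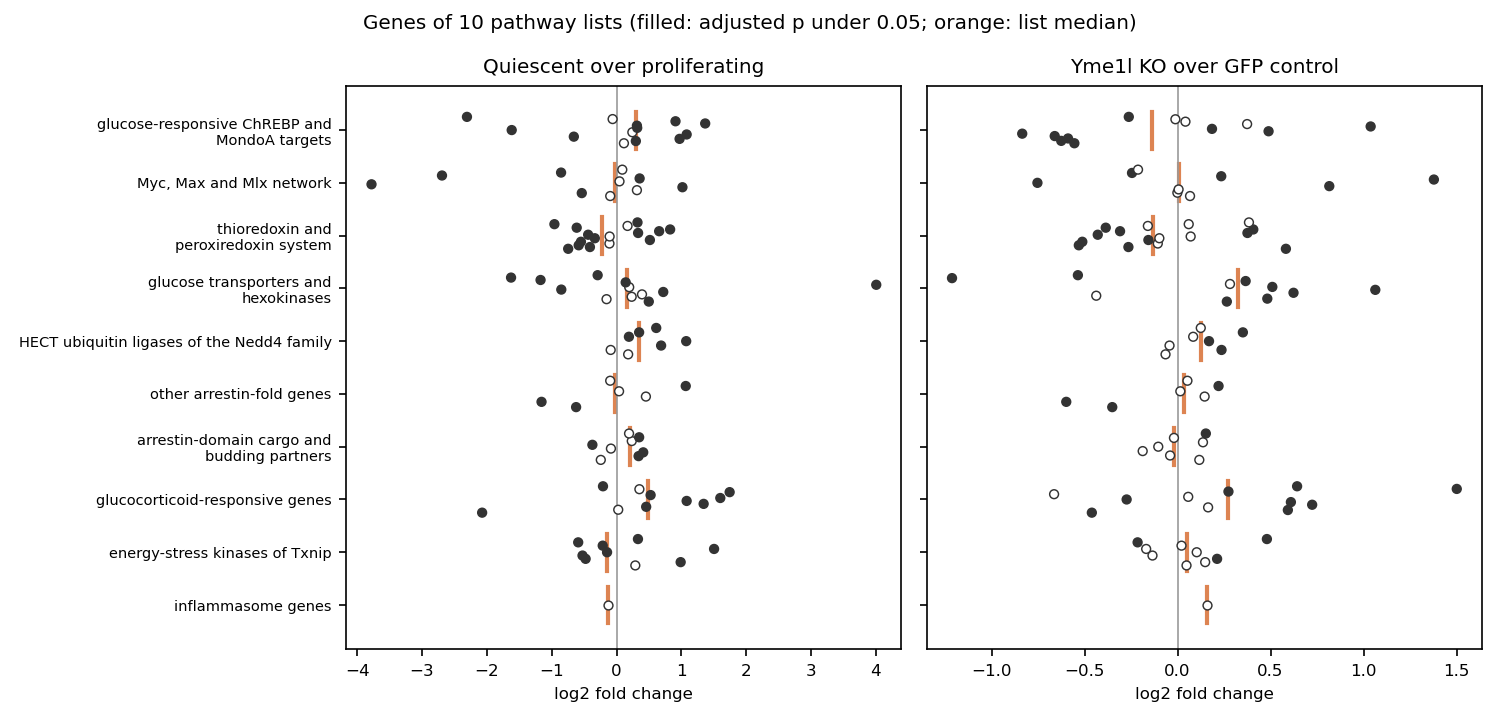
Log2 fold change of each tested gene in the 10 pathway lists, quiescent over proliferating on the left and Yme1l KO over GFP control on the right; filled points passed an adjusted p of 0.05 and orange lines are list medians. No gene of the Nedd4 family list is called lower in either panel, though the calls of Itch, Wwp1 and Nedd4l depended on the settings. The targets of ChREBP and MondoA have calls on both sides of 0.

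The HECT ubiquitin ligases, which alpha-arrestins bring to membrane proteins, had calls in 1 direction only in both comparisons. Of 7 HECT ligases of the Nedd4 family, 5 rose and 2 were not called in quiescent cells (median 0.35), and 3 rose and 4 were not called in the KO (median 0.12). Over all genes tested, 65.4% were called in quiescent cells (29.9% higher) and 51.6% in the KO (25.4% higher). With so few genes, and calls of Itch, Wwp1 and Nedd4l that depended on the settings, the shared direction is a description only. Wwp1, named after its values were seen because its difference was the largest of the list, had 5.27 ± 2.27 CPM in quiescent and 2.52 ± 1.57 CPM in proliferating cells (SD, n = 4 each). The groups overlapped, and the difference (log2 fold change 1.07, SE 0.432, adjusted p = 0.0475) lost its call under 8 of 16 alternatives (adjusted p 0.000298 to 0.196). Among these were leaving out proliferating replicate 1, 2 or 5 (0.0613, 0.105 and 0.105) or quiescent replicate 1 or 2 (0.0569 and 0.0855). Smurf2 rose in quiescent cells (0.61, SE 0.13). Itch, a ligase recruited to Txnip, had 15.6 ± 5.47 CPM in quiescent and 9.76 ± 1.82 CPM in proliferating cells, with overlapping groups (0.69, SE 0.233, adjusted p = 0.0223), and it lost its call under 6 of 16 alternatives. Its adjusted p reached 0.18 with the replicate block and was 0.0633, 0.0611 and 0.056 without proliferating replicate 2, 4 or 5. In the KO, Smurf1 rose (0.35, SE 0.072), and Nedd4l had a log2 fold change of 0.24 (SE 0.0789, adjusted p = 0.021) that lost its call under 6 of 14 alternatives (adjusted p 0.00647 to 0.712), among them leaving out GFP control replicate 1, 2 or 3 (0.0512, 0.0584 and 0.0817) or KO replicate 2 (0.0634).

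Among other genes of the arrestin fold, the beta-arrestin genes were lower in both comparisons. Arrb2 had 18.2 ± 2.30 CPM in quiescent and 40.7 ± 1.57 CPM in proliferating cells (-1.16, SE 0.0935, adjusted p = 2.03e-08), and 15.5 ± 1.99 CPM in the KO and 23.5 ± 1.39 CPM in the GFP control (-0.60, SE 0.11, adjusted p = 0.000399). Arrb1 fell in quiescent cells (-0.62, SE 0.0667). In the KO its log2 fold change of -0.35 (SE 0.127, adjusted p = 0.0313) lost its call under 4 of 14 alternatives (0.00669 to 0.199), with 0.199 without GFP control replicate 3 and 0.112 without KO replicate 1. Vps26c, a subunit of the retriever complex, rose in quiescent cells (1.07, SE 0.055). In the KO it had 0.22 (SE 0.0727, adjusted p = 0.0199), lost under 4 of 14 alternatives (0.00462 to 0.201), with 0.111 without GFP control replicate 1 and 0.0931 without KO replicate 1. In all, 1 of 6 tested genes of this list rose and 2 fell in each comparison (median -0.03 in quiescent cells and 0.03 in the KO). Arrdc5 and the cone arrestin Arr3 had no count in any library.

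Of the cargo and budding partners, 3 of 8 rose and 1 fell in quiescent cells (median 0.21). Notch1, a receptor (0.41, SE 0.045), and Vps4a, an ATPase of membrane scission (0.35, SE 0.063), rose, and Tsg101, the partner of Arrdc1 in budding, fell (-0.37, SE 0.0594). In the KO 1 of 7 was called (median -0.02). This was Vps4b (0.15, SE 0.0606, adjusted p = 0.0484), which lost its call under 9 of 14 alternatives (0.0106 to 0.302). Without GFP control replicate 1 or 2 its adjusted p was 0.174 and 0.184, and without KO replicate 1 or 2 it was 0.0859 and 0.125.

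Glucocorticoid-responsive genes were read because glucocorticoids also raise Txnip in other cells. In quiescent cells 6 of 10 rose and 2 fell (median 0.49), where 29.9% of all genes tested were called higher and 35.5% lower. Nfkbia, an inhibitor of NF-kappa-B, had 101 ± 5.05 CPM in quiescent and 30.2 ± 2.24 CPM in proliferating cells (1.74, SE 0.0684, adjusted p = 2.89e-12), and the kinase gene Sgk1 rose by 1.60 (SE 0.0682). Fkbp5, a cochaperone of the glucocorticoid receptor, fell (-2.07, SE 0.0978). Ddit4 had -0.21 (SE 0.0506, adjusted p = 0.00188), and it was not called after removal of the GC trend (0.308) and without quiescent replicate 2, 3 or 4 (0.0635, 0.0643 and 0.136), within a range of 9.7e-06 to 0.308. In the KO 6 of 11 rose and 2 fell (median 0.27), where 25.4% of all genes were called higher and 26.2% lower. The sulfotransferase gene Sult1a1 (1.501, SE 0.232) and the transcription factor gene Zbtb16 (0.72, SE 0.143) rose, and Fkbp5 fell (-0.46, SE 0.064). Tsc22d3 (0.59, SE 0.069), Klf9 (0.61, SE 0.0611) and Ddit4 (0.64, SE 0.0748), named after their values were seen, also rose. Sgk1 had -0.27 (SE 0.0995, adjusted p = 0.0316) in the KO, which lost its call under 7 of 14 alternatives (0.0172 to 0.115), with 0.0838 and 0.11 without GFP control replicate 1 or 2 and 0.052 and 0.0835 without KO replicate 1 or 2.

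The kinases AMPK and Akt phosphorylate Txnip protein, and their genes were mixed. In quiescent cells 3 of 9 rose and 5 fell (median -0.15). Prkag2, a regulatory subunit of AMPK, had 118 ± 2.21 CPM in quiescent and 41.7 ± 3.31 CPM in proliferating cells (1.504, SE 0.0621, adjusted p = 5.44e-12). Akt2 rose in quiescent cells (0.33, SE 0.042) and in the KO (0.48, SE 0.057), while Akt1 fell in quiescent cells (-0.59, SE 0.0481) and in the KO (-0.22, SE 0.0505). Prkab2, another AMPK subunit, fell in quiescent cells (-0.53, SE 0.144, adjusted p = 0.00456). In the KO 2 of 9 rose and 1 fell (median 0.05), and Prkab1 had 0.21 (SE 0.0716, adjusted p = 0.0221), lost under 4 of 14 alternatives (0.0139 to 0.11), with 0.11 and 0.0571 without GFP control replicate 1 or 3 and 0.0624 without KO replicate 1. Of the 7 inflammasome genes, Il18 alone passed the filter in each comparison, and it was called in neither (-0.13 in quiescent cells, adjusted p = 0.495, and 0.16 in the KO, adjusted p = 0.54).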

How the data were processed

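Poly-A RNA was sequenced from stranded TruSeq libraries of 14 samples, grouped by their labels. Salmon gene tables were deposited, per the labels and file names, with GRCm39, R 4.0.3 and DESeq2 1.30.1 per the submitters' processing notes; the salmon version and the annotation are not given in the sources used here. The deposited expected counts (estimated counts per gene) were rounded to whole numbers and tested here. The authors' deposited TPM values gave levels across groups, and their deposited log2 fold changes are quoted as theirs. Replicate numbers in columns were matched to labels by sample ID. Replicates of a group differed beyond sampling noise (chi-square over degrees of freedom 1.71 to 8.96), so each library counted as 1 sample.

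The test was edgeR 4.0.16 under R 4.3.3, with TMM normalization, filterByExpr (minimum count 10, minimum total 15) and a robust quasi-likelihood fit within each table, with Benjamini-Hochberg adjustment over all genes and a threshold of 0.05. Standard errors are the size of the log2 fold change divided by the root of its F statistic. The test was checked on simulated counts in which few genes were changed, so that check does not cover data in which most genes were called. Alternatives were RLE size factors, library size alone, DESeq2 1.42.0, limma 3.58.1 on log2(TPM + 1), no filter, 1 CPM in every library of a group, a replicate block, each library left out, and removal of each library's GC trend, which was added after seeing the data. GC content came from transcripts of an earlier mouse annotation. Promoters came from RefSeq, where all 8 genes matched by symbol.

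The 8 genes and the lists were chosen with earlier results of these data known. Named list genes were the 2 called genes with the largest rise and the 2 with the largest fall per list and comparison, at a mean of at least 5 CPM; the 5 genes most like Txnip and the 5 most like Arrdc4 were also named, except 1 of those like Arrdc4, which is not reported here. Intervals on counts cover counting error only, as the reads carry no molecular identifiers.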

Additional observations from a re-analysis of the deposited data

Results flagged for a closer look

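Arrdc1 stood at 1.99 CPM in proliferating replicate 2, lower than the other 3 proliferating libraries, which lay between 2.76 and 2.85 CPM. The gap to the nearest of them was 0.893 of the group's range, above Dixon's critical value for 4 samples. Chance alone flags about 1 in 20 groups. The gene had 95 counts over the 4 proliferating libraries.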

How the results depend on the processing

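The calls of Txnip, Arrdc3, Arrdc4 and Mlxip in quiescent cells held under 16 of 16 alternatives, with log2 fold changes of 1.36 to 1.62, 0.62 to 1.02, 0.68 to 0.94 and 1.44 to 1.71. In the KO, Txnip ranged from 1.65 to 1.99, Mlxip from 0.44 to 0.66 and Arrdc4 from 0.31 to 0.47 over 14 alternatives. Leaving out each library gave 1.44 to 1.62 for Txnip in quiescent cells. By limma on log2(TPM + 1) the KO values were 0.10 for Arrdc2, -0.17 for Arrdc3 and -0.17 for Mlx, and with the GC trend removed Arrdc3 was at -0.03. Library size alone gave 2823 genes higher and 5219 lower in quiescent cells, 35.1% of calls in place of 45.7%, with the median gene shifted by -0.137, and 7 called genes of the set in place of 5; the cause was not tested. Same-numbered replicates did not deviate together (correlations -0.317 to -0.00887 in quiescent and proliferating cells, -0.0689 to 0.00419 in the KO and its control). Deviations were centred within groups of few libraries, so these values cannot decide whether the samples were paired. With the replicate block 6553 genes were called in quiescent cells, 5 of the set among them, and 6252 in the KO, and Prkab2 lost its call (adjusted p = 0.0737). Depth limits Mlxipl and Arrdc1.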
